A study of Bos taurus with 6 samples.

Results

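The nuclear genes of respiratory complexes III and IV and of complex V, the ATP synthase, were compared between bovine preadipocytes transfected with a bta-miR-484 agomir and preadipocytes transfected with its negative control, the agomir NC. Genes were taken by their symbols, which begin with UQCR or read CYC1 for complex III, begin with COX4, COX5, COX6, COX7 or COX8 for complex IV, and begin with ATP5 for complex V. This gave 44 of the 23475 genes in the table, with 9 for complex III, 16 for complex IV and 19 for complex V. Complex III passes electrons from ubiquinol to cytochrome c, complex IV hands them on to oxygen, and complex V makes ATP with the protons that flow back through the inner membrane. Each of them joins a few subunits made from mitochondrial DNA to many that are encoded in the nucleus, and the latter are described here. The amount of mitochondria and their respiration increase as preadipocytes mature into fat cells.

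The cells had been isolated from the subcutaneous fat of calves and grown in high-glucose medium with fetal bovine serum. An agomir is a modified RNA duplex that acts in the cell as the miRNA it copies. At 48 h from transfection, RNA of 3 samples per group was collected and sequenced. It is not stated if these were different calves or separate cultures, so the p-values measure only the spread between these samples, which may be technical. The values are FPKM, fragment numbers scaled to transcript length and to the mapped fragments of the library, and levels of different genes are compared below on that scale only. They summed to between 365977 FPKM, in agomir NC replicate 2, and 379361 FPKM, in agomir NC replicate 3. Since read numbers cannot be recovered from them, depth is unknown for all 6 libraries, and the error from counting cannot be given.

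The labels call the cells adipocytes, and their markers were those of fibroblast-like cells rather than of mature adipocytes. The collagen gene COL3A1 had a mean of 7623 FPKM over the 6 libraries, and PDGFRA, a receptor on adipocyte precursors, had a mean of 166 FPKM. Of 12 genes that mark fibroblast-like preadipocytes, 11 were above the filter of a mean of 0.5 FPKM, and DLK1 was listed at 0 in every library. The 8 markers of mature adipocytes summed to between 11.0 and 12.6 FPKM per library. LPL was the highest of them at a mean of 3.73 FPKM, and the adipokine gene ADIPOQ reached at most 0.197 FPKM. UCP1, the uncoupling protein of brown adipocytes, was listed at 0 in all libraries but agomir NC replicate 1, at 0.0585 FPKM, and the 4 brown adipocyte markers summed to at most 3.33 FPKM.

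Other cell types left little signal. The 7 markers of skeletal and cardiac muscle summed to at most 0.430 FPKM, and 4 of them, CKM and MYOD1 included, were at 0 in all libraries. Endothelial markers summed to between 3.77 and 4.54 FPKM, led by VWF at a mean of 3.39 FPKM, while CDH5 reached at most 0.182 FPKM. Immune markers summed to between 6.68 and 7.76 FPKM, led by CD14 at a mean of 6.27 FPKM, while PTPRC reached at most 0.119 FPKM. Pericyte and smooth muscle markers summed to between 12.4 and 18.0 FPKM, nearly all of it from CNN1, which cultured fibroblasts also express, and RGS5 was at 0 in all but 1 library. The red blood cell markers summed to at most 0.0570 FPKM, with HBB at 0 throughout. Of the preadipocyte markers tested, DCN and NT5E were lower with the agomir at an unadjusted p under 0.05, with log2 fold changes of -0.12 and -0.25. These are 18.2% of the 11 tested, against 4.31% of all genes, and the count was 3 under median-ratio scaling, or 27.3% against 5.68%, and 1 under quantile normalization, or 9.09% against 5.06%. Of the 5 mature adipocyte markers tested, PPARG was higher, at 0.23, and FABP4 lower, at -0.49, each of them 20% of the list against 6.63% of all genes higher and 4.31% lower. DCN was at 0 under quantile normalization, since it held the same rank in every library. That p rose to 0.05 or more for DCN also when no filter was set, when no trend of the variance was fitted and without agomir replicate 1 or 3, for PPARG with the gene span correction and without agomir replicate 1 or 3 or agomir NC replicate 3, and for FABP4 without agomir replicate 3 or agomir NC replicate 1. No marker passed an adjusted p of 0.05 in limma with Benjamini-Hochberg adjustment, and the part of these differences in the values of the respiratory genes was not tested. In RNA from whole cultures, fewer cells of a type and less RNA per cell cannot be told apart.

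No gene of the 3 complexes differed between the groups after adjustment for all genes tested. The groups were compared on log2(FPKM + 0.5), and of the 44 genes 39 had a mean of at least 0.5 FPKM and were tested. In limma with Benjamini-Hochberg adjustment, none of the 39 had an adjusted p under 0.05, where 0.00805% of all 12422 genes were, and the lowest adjusted p was 0.305. At an unadjusted p under 0.05, UQCRC1 and CYC1 were higher with the agomir and COX6B1 was lower. These are 2 of 39 genes higher, or 5.13%, against 6.63% of all genes tested, and 1 lower, or 2.56%, against 4.31% of all genes tested. The same 3 genes were those whose groups did not overlap, 2 with every agomir library above every agomir NC library, where 10.9% of all genes lay, and 1 below, where 6.36% lay. Over the 39 genes, none of these shares was above that of the background. By complex, 2 of the 9 genes of complex III were higher, or 22.2% against 6.63% of all genes tested. In complex IV, 1 of the 11 tested genes was lower, or 9.09% against 4.31%. Of the 19 genes of complex V, 0 were called. These shares above the background rest on the same 3 genes. The background split itself moved with the scaling, to 5.29% higher and 5.68% lower under median-ratio scaling and to 8.12% and 3.41% with libraries set to an equal sum, where 5.13% and 2.56%, and 7.69% and 2.56%, of the 39 genes were called.

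The log2 fold changes of the 39 genes, agomir minus agomir NC, ran from -0.23 to 0.20 with a median standard error of 0.068. The upper end was ATP5S, listed in RefSeq as DMAC2L, and the next highest was UQCRC1 at 0.14. The log2 fold changes were above 0 for 15 genes and below 0 for 24, that is above 0 for 38.5% of them against 55.1% of all genes tested. The count above 0 was 21 with libraries set to an equal sum, or 53.8% against 60.3%, and 12 under median-ratio scaling, or 30.8% against 49.1%. It was 22 without agomir replicate 2 or without agomir NC replicate 3, or 56.4% against 53.4% and 55.7% of all genes. Without agomir NC replicate 2 it was 9, or 23.1% against 53.0% of all genes. The median of the 39 genes was -0.0092 beside 0.013 for all genes tested, and with libraries set to an equal sum, which moved the background as well, 0.0064 beside 0.028. With 1 library left out it ran from -0.051, without agomir replicate 3, to 0.0088, without agomir NC replicate 3. By complex the median was -0.0073 for complex III, -0.0073 for complex IV and -0.030 for complex V. The signs of the medians of complexes III and IV flipped with that shift, to 0.0083 and 0.0084. With 1 library left out, that of complex III ran from -0.047, without agomir replicate 3, to 0.067, without agomir replicate 2. The range for complex IV was from -0.074, without agomir replicate 1, to 0.0082, without agomir replicate 2, and for complex V from -0.047, without agomir NC replicate 2, to 0.019, without agomir NC replicate 3. Each range held values on both sides of 0. The 95% interval lay inside a change of 1.5-fold either way for 39 of the 39 genes, as for 92.9% of all genes tested, and inside 1.2-fold for 28, as for 46.0% of all genes tested. On this scale the change of a gene at low FPKM appears smaller than it is.

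**Figure D1:**
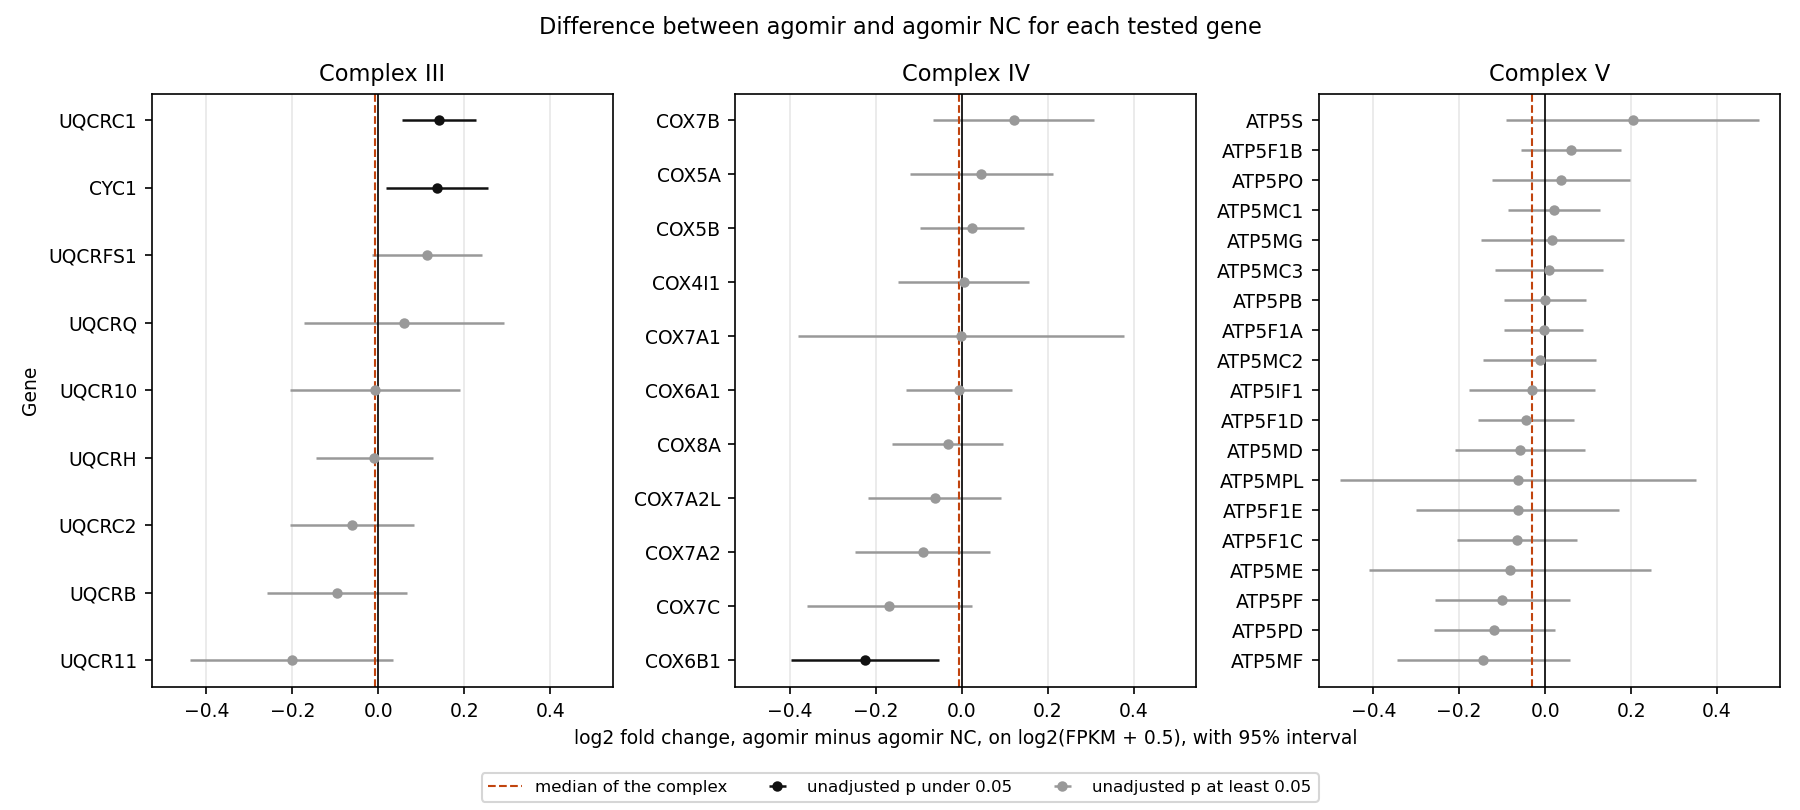
Log2 fold change of each tested gene, agomir minus agomir NC on log2(FPKM + 0.5), with its 95% interval from limma, by complex; black marks an unadjusted p under 0.05, grey the others, and the dashed line the median of the complex. UQCRC1 at 0.14, CYC1 at 0.14 and COX6B1 at -0.23 have intervals that leave out 0, and the dashed lines lie at -0.0073, -0.0073 and -0.030, of which the former pair turned positive when libraries were set to an equal sum.

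Together the 44 genes took between 0.728% and 0.773% of the FPKM of a library. Their summed level was 2788 ± 84.7 FPKM in the agomir group and 2808 ± 128 FPKM in the agomir NC group (mean ± SD, n = 3 each), a difference within the spread between libraries. ATP5F1B and ATP5F1A, the catalytic and the regulatory subunit of the ATP synthase head, stood highest at means of 235.4 and 235.2 FPKM over the 6 libraries, ranks 218 and 219 among all genes. Their order cannot be told from the spread between libraries. COX4I1 followed at 159.8 FPKM, ATP5MC2 at 132 FPKM and UQCRC1 at 121 FPKM. At the lower end of the tested genes were COX7B at 18.3 FPKM, COX7A1 at 7.20 FPKM and ATP5S at 3.47 FPKM. In complex III, UQCRQ was the lowest at 21.8 FPKM.

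**Figure D2:**
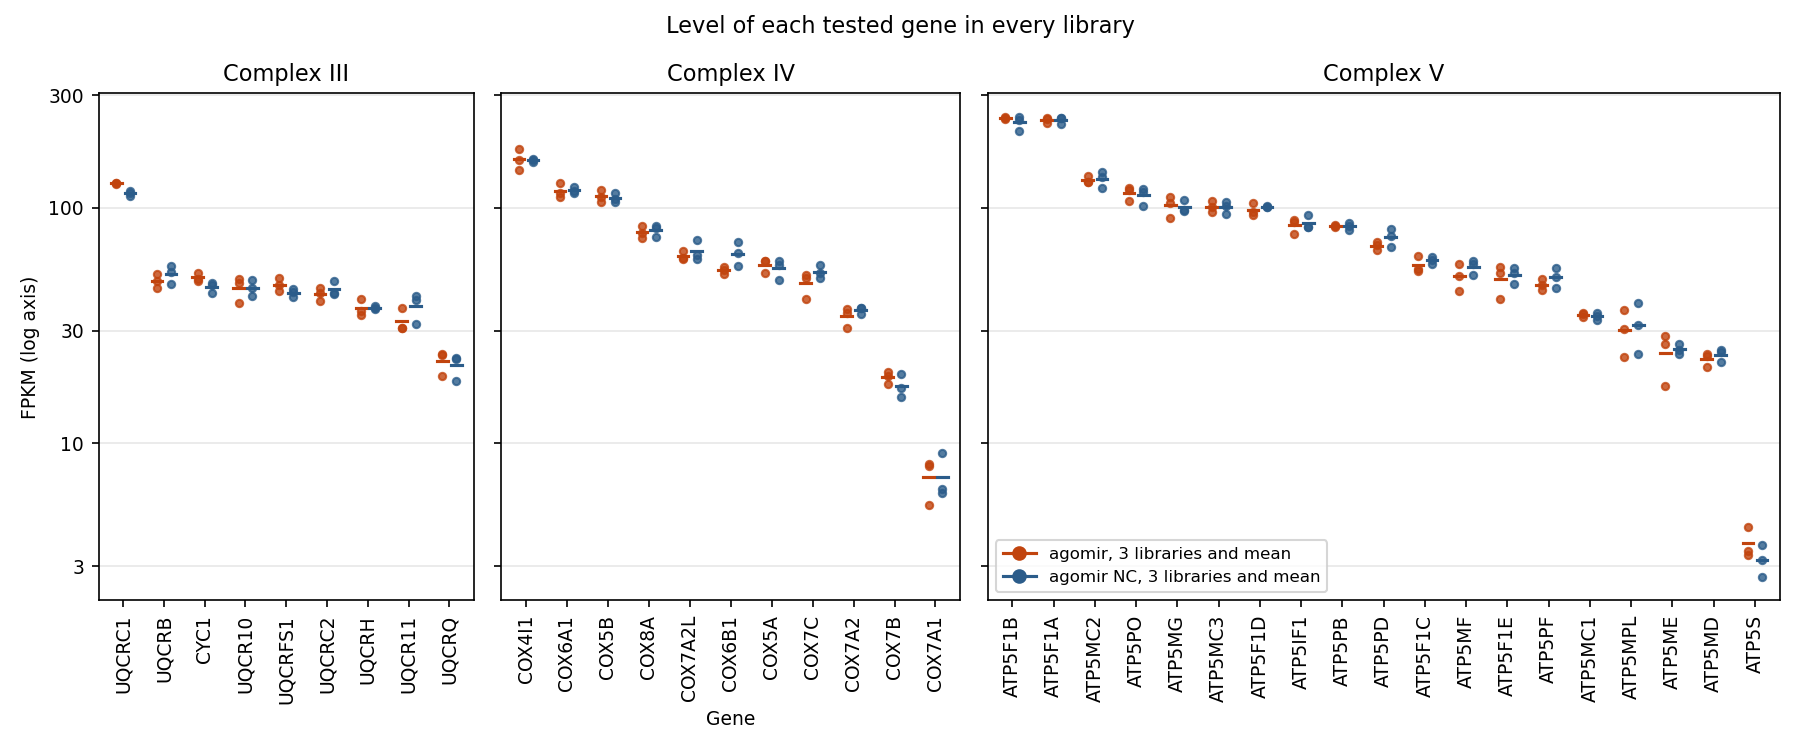
FPKM of the 39 tested genes in every library on a log axis, by complex and in order of mean level; points are libraries, red for agomir and blue for agomir NC, and dashes are group means. Levels run from 235.4 FPKM for ATP5F1B to 3.47 FPKM for ATP5S, and the points of the groups are apart for UQCRC1, CYC1 and COX6B1.

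Over these genes, libraries of the same group lay further apart than the means of the groups. Agomir replicate 2 had the lowest value of the 6 libraries in 19 of the 39 genes, or 48.7%, while it had the lowest value in 14.7% of all genes tested. Agomir NC replicate 2 was lowest in 12 of the 39, or 30.8%, against 21.4% of all genes, and highest in none, against 14.4%. Agomir NC replicate 3 was highest in 12 of the 39, or 30.8%, against 19.4% of all genes, and lowest in none, against 18.9%. Agomir replicate 3 was highest in 11, or 28.2%, against 14.2% of all genes. The deviation of each gene from its own mean log2 value over the libraries was also taken. Its median over the 39 genes was 0.037, -0.092 and 0.035 in agomir replicates 1 to 3 and 0.037, -0.061 and 0.063 in agomir NC replicates 1 to 3. Over all genes tested the same median stayed between -0.016 and 0.021. Without agomir replicate 2, 1 of the respiratory genes was higher and 0 were lower at an unadjusted p under 0.05, against 4.47% and 3.62% of all genes in the same fit. Without agomir replicate 3, 3 were higher and 4 lower, or 7.69% and 10.3% against 5.24% and 3.62%. Leaving out agomir NC replicate 2 gave 1 higher and 5 lower, or 2.56% and 12.8% against 5.28% and 4.29%. Leaving out agomir NC replicate 3 gave 2 higher and 0 lower, or 5.13% and 0% against 5.93% and 3.08%.

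**Figure D3:**
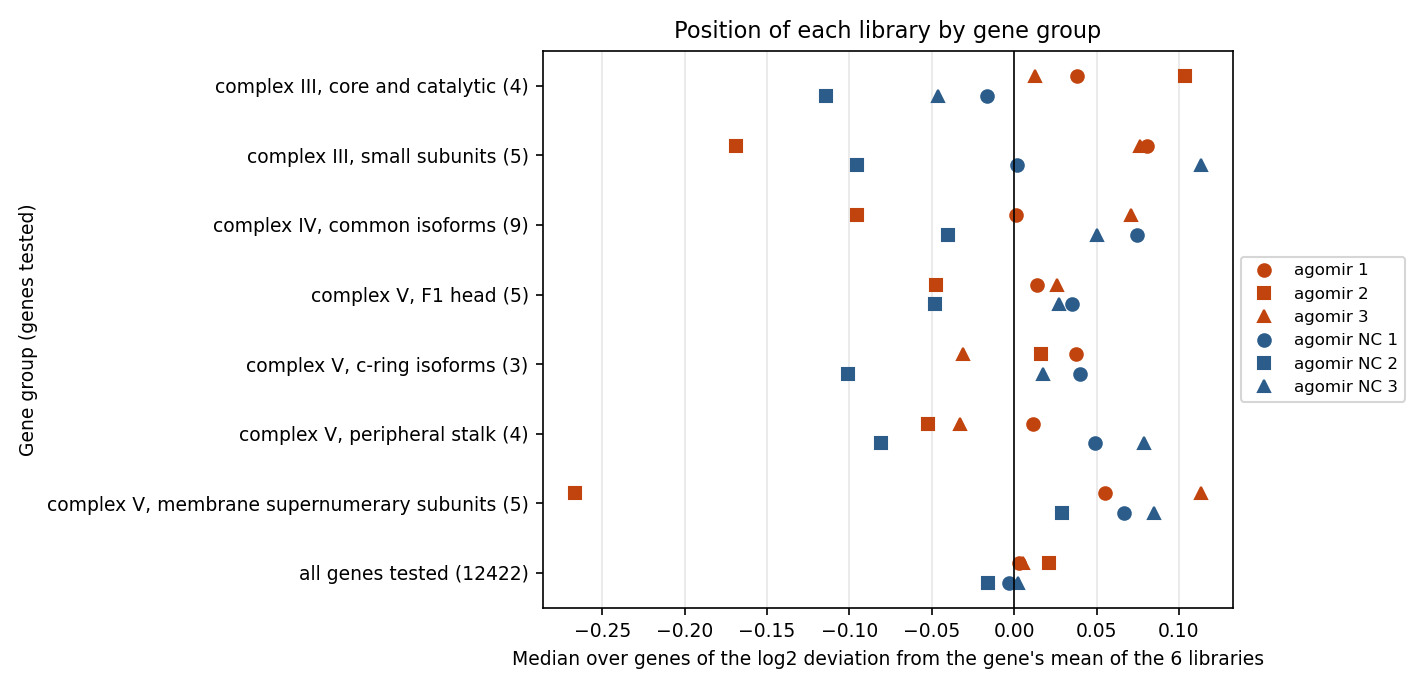
Position of each library by gene group, as the median over the genes of a group of the log2 deviation from each gene's mean over the 6 libraries; red symbols are agomir and blue symbols agomir NC libraries, shaped by replicate number, and the number of genes is in parentheses. Agomir replicate 2 lies lowest for the small subunits of complex III, at -0.17, and the membrane subunits of complex V, at -0.27, and highest for the core of complex III, at 0.10.

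In complex III, 3 of the 4 genes of the core and catalytic subunits had log2 fold changes above 0, as had 1 of the 5 small subunits, or 3 of these 5 with libraries set to an equal sum. UQCRC1 and UQCRC2 encode the large core proteins on the matrix side, UQCRFS1 the Rieske iron-sulfur protein and CYC1 cytochrome c1, the last carrier before cytochrome c. UQCRC1 measured 125.8, 126.7 and 127.6 FPKM in the agomir libraries, against 117.2, 111.8 and 115.6 FPKM in the agomir NC libraries. Every agomir library lay above every agomir NC library, and the agomir libraries were within 2 FPKM of each other. Its means were 126.7 ± 0.891 and 114.9 ± 2.78 FPKM (mean ± SD, n = 3 each), 10.3% higher with the agomir. The log2 fold change was 0.14 with a standard error of 0.038 and a 95% interval from 0.056 to 0.23. Limma gave an unadjusted p of 0.00446 and, with Benjamini-Hochberg adjustment, an adjusted p of 0.305. By exact permutation, two-sided, p was 0.1, which no comparison of 3 with 3 libraries can go below. Its unadjusted p was under 0.05 in each of the 17 alternative settings, with log2 fold changes between 0.12 and 0.16.

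CYC1 was at 49.0, 53.0 and 49.7 FPKM with the agomir, against 47.8, 43.4 and 46.7 FPKM with the agomir NC. The groups did not overlap, but the lowest agomir library and the highest agomir NC library were close to each other. The log2 fold change was 0.14 with a standard error of 0.053, limma's unadjusted p was 0.0284 and its Benjamini-Hochberg adjusted p 0.402. The unadjusted p was at least 0.05 in 4 of the 17 alternatives, among them those without agomir replicate 2, where its log2 fold change was 0.10, and without agomir NC replicate 2, where it was 0.097. Another was the fit with a block for the replicate number, where limma's unadjusted p was 0.0525. UQCRFS1 was at 47.0, 50.2 and 44.3 FPKM with the agomir, against 45.2, 41.6 and 43.8 FPKM with the agomir NC. Agomir NC replicate 1 fell between agomir replicates 3 and 1, so the groups overlapped, and the log2 fold change was 0.11 (standard error 0.057, limma's unadjusted p = 0.0772). That p was 0.0445 with libraries set to an equal sum and 0.0301 without agomir replicate 3, while without agomir replicate 2 the log2 fold change was 0.067. UQCRC2 was the core gene below 0, with a log2 fold change of -0.061 (standard error 0.064). It was -0.0033 without agomir NC replicate 3 and -0.016 without agomir replicate 1, and reached -0.094 without agomir NC replicate 2 and -0.10 without agomir replicate 2. The core proteins are built into the complex in equal number, while the FPKM of UQCRC1 over that of UQCRC2 was 3.12, 2.79 and 2.95 with the agomir and 2.71, 2.61 and 2.38 with the agomir NC. This ratio, chosen after the values were seen, was higher in every agomir library than in any agomir NC library.

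The small subunits of complex III surround its core. UQCR11, one of them, was at 37.4, 30.9 and 30.8 FPKM with the agomir, against 42.0, 32.1 and 40.4 FPKM with the agomir NC. The groups overlapped through agomir replicate 1 and agomir NC replicate 2. The log2 fold change was -0.20 (standard error 0.11, limma's unadjusted p = 0.0861, or 0.0182 with a block for the replicate number). It was -0.32 without agomir NC replicate 2 and -0.29 without agomir replicate 1, with unadjusted p of 0.00477 and 0.0216 in limma, and -0.13 without agomir NC replicate 1. UQCRB, which lies beside the ubiquinone site, had a log2 fold change of -0.096, which was -0.17 without agomir NC replicate 2, at an unadjusted p of 0.0300 in limma, and -0.048 and -0.039 without agomir replicate 2 and agomir NC replicate 3. UQCRQ had 0.060, and between -0.043 and 0.16 with 1 library left out, and UQCRH, the hinge protein that helps cytochrome c to dock, had -0.0092. The sign for UQCRH flipped when libraries were set to an equal sum. UQCRHL, a retrocopy of UQCRH known from other species, was not analysed here. The 4 core genes summed to 262, 275 and 265 FPKM with the agomir, against 253, 240 and 255 FPKM with the agomir NC, with no overlap. This separation rested on UQCRC1, since the other 3 summed to 136, 149 and 137 FPKM with the agomir, against 136, 128 and 139 FPKM with the agomir NC, and overlapped. The 5 small subunit genes summed to 187 ± 15.2 FPKM in the agomir group and 195 ± 12.8 FPKM in the agomir NC group (mean ± SD, n = 3 each), and their groups overlapped. In agomir replicate 2 the core genes stood highest and the small subunit genes lowest of all libraries, with a ratio of mean core to mean small subunit FPKM of 2.02. In the other agomir libraries the ratio was 1.64 and 1.72, and with the agomir NC it was 1.60 ± 0.0566 (mean ± SD, n = 3). Over all 9 genes the sums were 455 ± 8.14 and 444.7 ± 20.8 FPKM (mean ± SD, n = 3 each), a ratio of 1.02.

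In complex IV, COX6B1 was the gene furthest from 0 and the other 10 tested genes had an unadjusted p of at least 0.05. COX6B1 encodes a small subunit on the outer face of the complex, between its monomers. It was at 54.4, 52.4 and 56.1 FPKM with the agomir, against 63.9, 56.3 and 71.3 FPKM with the agomir NC. The agomir libraries all lay below the agomir NC libraries, and the agomir NC libraries were spread widely, with replicate 2 just above the highest agomir library. The log2 fold change was -0.23 with a standard error of 0.077 and a 95% interval from -0.40 to -0.054. Limma's unadjusted p was 0.0153 and its Benjamini-Hochberg adjusted p was 0.361. By exact permutation p was again 0.1. Without agomir NC replicate 3 the log2 fold change was -0.14 with an unadjusted p of 0.0524 in limma, and without agomir replicate 2 it was -0.20 with an unadjusted p of 0.0519. Without agomir NC replicate 2 the log2 fold change was -0.31.

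Next to COX6B1, COX7C had the lowest log2 fold change of the complex, at -0.17 (standard error 0.085, limma's unadjusted p = 0.0782, or 0.0389 with a block for the replicate number). It was at 50.4, 41.1 and 51.6 FPKM with the agomir, against 50.3, 52.7 and 57.3 FPKM with the agomir NC, so that the groups overlapped and agomir replicate 2 was far below the others. Without that library its log2 fold change was -0.066, and without agomir replicate 3 it was -0.23 with an unadjusted p of 0.0318 in limma. COX7B, another small membrane subunit, had the highest, at 0.12 (standard error 0.084). This became 0.21 without agomir NC replicate 1, with an unadjusted p of 0.0227 in limma, and 0.045 without agomir NC replicate 2. COX5A and COX5B, which lie on the matrix side, had 0.046 and 0.024. COX4I1, the most abundant of the complex and the form of subunit 4 found in most tissues, was at 178, 144 and 159 FPKM with the agomir, against 157, 161 and 159 FPKM with the agomir NC. Its agomir libraries spanned a range that held all agomir NC libraries, and its log2 fold change of 0.0045 became -0.012 under median-ratio scaling. The 16 genes summed to 752 ± 39.5 FPKM in the agomir group and 768 ± 27.1 FPKM in the agomir NC group (mean ± SD, n = 3 each), a ratio of 0.979, within the spread between libraries.

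Several subunits of complex IV exist as a common form and a form made in few tissues, and the preadipocytes carried almost solely the common forms. COX4I2, the form of lung, COX6A2, the form of heart and skeletal muscle, and COX7B2, a form of testis, were listed at 0 in all 6 libraries. Their partners COX4I1, COX6A1 and COX7B had means of 159.8, 118 and 18.3 FPKM. COX8B, a muscle form, was listed at 0.146, 0.0854 and 0 FPKM with the agomir, against 0, 0.0147 and 0 FPKM with the agomir NC, beside a mean of 79.4 FPKM for COX8A. COX6B2, a form of testis, was listed at 0.902, 0.200 and 0 FPKM with the agomir, against 0.0810, 0.918 and 0 FPKM with the agomir NC. These 5 genes were under the filter and were not tested. COX7A1, the form of muscle and brown fat, was the exception, at 7.98, 5.46 and 8.14 FPKM with the agomir, against 9.07, 6.39 and 6.15 FPKM with the agomir NC. It made up 17.1 ± 1.84% of the summed FPKM of COX7A1 and COX7A2 with the agomir and 16.3 ± 2.81% with the agomir NC (mean ± SD, n = 3 each), so the balance of these forms did not differ beyond the spread. The log2 fold change of COX7A1 was -0.0018 with a 95% interval from -0.38 to 0.38, and 0.013 with libraries set to an equal sum. That of COX7A2 was -0.091, and -0.012 without agomir replicate 2. COX7A2L, a relative that joins complexes III and IV into supercomplexes, had a mean of 64.0 FPKM and a log2 fold change of -0.063, which was 0.016 without agomir NC replicate 3 and -0.12 without agomir NC replicate 1. COX6A1 and COX8A had -0.0073 and -0.033, of which the former changed sign when libraries were set to an equal sum. COX6C and COX8C were not analysed here.

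In complex V, no gene had an unadjusted p under 0.05, where 6.63% of all genes tested were higher and 4.31% lower. No gene had groups apart, where 10.9% of all genes had every agomir library above and 6.36% below. The 19 genes summed to 1581 ± 38.2 FPKM in the agomir group and 1595 ± 81.2 FPKM in the agomir NC group (mean ± SD, n = 3 each), a ratio of 0.991. ATP5F1B, the catalytic subunit of the head, was at 237, 244 and 239 FPKM with the agomir, against 243, 213 and 237 FPKM with the agomir NC. Its groups overlapped, agomir NC replicate 2 was far below the other libraries, and the log2 fold change was 0.061 with a 95% interval from -0.055 to 0.18. Leaving that library out gave 0.0030, and leaving out agomir NC replicate 1 gave 0.098. The 5 genes of the head summed to 680 ± 8.88 and 678 ± 28.7 FPKM (mean ± SD, n = 3 each). ATP5IF1, the inhibitor that keeps the enzyme from running backward, had a mean of 85.2 FPKM. Its FPKM was 0.352 ± 0.0309 of that of ATP5F1B with the agomir and 0.374 ± 0.0287 with the agomir NC (mean ± SD, n = 3 each), and its log2 fold change was -0.030 (standard error 0.065).

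The ring of c subunits that turns in the membrane is made from ATP5MC1, ATP5MC2 and ATP5MC3, which encode the same mature protein behind different import sequences. ATP5MC2 gave 49.1 ± 1.33% of their summed FPKM with the agomir and 49.6 ± 1.22% with the agomir NC (mean ± SD, n = 3 each). ATP5MC3 gave 37.8 ± 1.40% and 37.5 ± 0.786%, and ATP5MC1 gave 13.1 ± 0.0878% and 12.9 ± 0.528% (mean ± SD, n = 3 each). The shares of ATP5MC2 and ATP5MC3 differed between the groups by less than the SD of either group. That of ATP5MC1 differed by less than the SD of the agomir NC group, but by more than the small SD of the agomir group. The log2 fold changes of the 3 genes were -0.012 for ATP5MC2, 0.0094 for ATP5MC3 and 0.020 for ATP5MC1. The sign for ATP5MC2 flipped when libraries were set to an equal sum, and that for ATP5MC3 under median-ratio scaling.

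The peripheral stalk holds the head still against the turning ring. Among its 4 genes, ATP5PD was at 69.2, 66.2 and 71.4 FPKM with the agomir, against 80.9, 68.3 and 75.9 FPKM with the agomir NC. Agomir NC replicate 2 fell between agomir replicates 2 and 1, and the log2 fold change was -0.12 (standard error 0.063, limma's unadjusted p = 0.0895). Without that library it was -0.18, with an unadjusted p of 0.00719 and a Benjamini-Hochberg adjusted p of 0.449 in limma, and without agomir NC replicate 1 it was -0.063. ATP5PF, also of the stalk, had -0.099, which was -0.17 without agomir NC replicate 2, at an unadjusted p of 0.0232 in limma, and -0.064 and -0.036 without agomir replicate 2 and agomir NC replicate 3, while ATP5PO, which ties the stalk to the head, had 0.037, and -0.039 without agomir NC replicate 2. Among the membrane subunits around the ring, ATP5MF had the lowest log2 fold change of the complex, at -0.14 (standard error 0.090, limma's unadjusted p = 0.142). It was at 51.1, 44.3 and 57.8 FPKM with the agomir, against 51.7, 57.8 and 59.2 FPKM with the agomir NC, and agomir replicate 2 was the lowest. Without that library its log2 fold change was -0.046, and without agomir replicate 3 it was -0.24 with an unadjusted p of 0.0159 in limma. The 5 membrane subunit genes summed to 245, 196 and 249.6 FPKM with the agomir, against 232, 228 and 252 FPKM with the agomir NC, so that agomir replicate 2 was low for the whole group. Among the genes taken for complex V by symbol, the highest log2 fold change was that of ATP5S, at 0.20 (standard error 0.13, limma's unadjusted p = 0.153). ATP5S was taken by this older symbol only and was not placed in any of the subunit groups of the complex. It is listed in RefSeq as DMAC2L and was at 3.49, 3.34 and 4.41 FPKM with the agomir, against 2.69, 3.19 and 3.69 FPKM with the agomir NC, with overlap. Its log2 fold change was 0.094 without agomir replicate 3, 0.10 without agomir NC replicate 1 and 0.30 without agomir NC replicate 3. ATP5MGL was not analysed here.

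The assembly factors that build these complexes were read from the same fit, and none passed an adjusted p of 0.05 in limma with Benjamini-Hochberg adjustment. Of 8 factors of complex III, 0 had an unadjusted p under 0.05, where 6.63% of all genes were higher and 4.31% lower, and their median log2 fold change was 0.024, which ran from -0.011, without agomir NC replicate 2, to 0.079, without agomir replicate 1. The count higher was 1 without agomir replicate 2 or 3, or 12.5% against 4.47% and 5.24% of all genes in these fits. Of 26 factors of complex IV, 2 were higher, or 7.69% against 6.63% of all genes tested, and 0 lower, against 4.31%. Their median was -0.0052, which turned to 0.0094 with libraries set to an equal sum and ran from -0.055 to 0.032 with 1 library left out. The higher ones were APOPT1, listed in RefSeq as COA8, and CMC2, both with a log2 fold change of 0.17. The p of APOPT1 was at least 0.05 under quantile normalization and without agomir replicate 2 or any 1 agomir NC library, and that of CMC2 under median-ratio scaling, when no filter or no variance trend was used, and without agomir replicate 1 or 3 or agomir NC replicate 2. Under median-ratio scaling or quantile normalization, 1 factor of complex IV was higher and 2 were lower. These are 3.85% and 7.69% of the list, against 5.29% and 5.68% of all genes under the former and 5.60% and 5.06% under the latter. Without agomir NC replicate 2, 0 were higher and 1 lower, or 3.85%, against 5.28% and 4.29% of all genes. Without agomir replicate 2, 2 were higher and 3 lower, or 7.69% and 11.5% against 4.47% and 3.62%. Leaving out agomir NC replicate 3 made 3 higher and 0 lower, or 11.5% and 0% against 5.93% and 3.08%. Of 5 factors of complex V, 1 was higher, or 20% against 6.63% of all genes tested, and 0 lower, with a median of 0.059, which was -0.076 without agomir replicate 1, -0.0097 without agomir NC replicate 2 and 0.14 without agomir NC replicate 3. The factor was ATPAF2, a chaperone that holds the product of ATP5F1A until the head is put together. ATPAF2 was at 9.97, 9.96 and 10.4 FPKM with the agomir, against 8.14, 8.39 and 8.97 FPKM with the agomir NC. All agomir libraries lay above all agomir NC libraries, and the log2 fold change was 0.24 (standard error 0.066, limma's unadjusted p = 0.00489, Benjamini-Hochberg adjusted p = 0.305). UQCC2, SURF1 and COA4 were not analysed here.

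Around complexes III to V, CYCS, the cytochrome c that runs between complexes III and IV, had a fold change of 0.25 on the log2 scale (standard error 0.14, limma's unadjusted p = 0.112). It was at 24.8, 26.9 and 25.6 FPKM with the agomir, against 23.2, 16.3 and 26.5 FPKM with the agomir NC, where replicate 2 was far below the rest. Without that library the log2 fold change of CYCS was 0.051, and without agomir NC replicate 3 it was 0.39 with an unadjusted p of 0.0130 in limma. NDUFA4, which is bound to complex IV, was at 80.4 ± 4.25 and 81.0 ± 7.91 FPKM (mean ± SD, n = 3 each). Its paralog NDUFA4L2, a gene induced by hypoxia, was at 28.5, 23.3 and 27.3 FPKM with the agomir, against 32.9, 33.2 and 32.8 FPKM with the agomir NC. Every agomir library was below every agomir NC library, with a log2 fold change of -0.32 (standard error 0.071, limma's unadjusted p = 0.00125, Benjamini-Hochberg adjusted p = 0.225).

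NDUFA4L2 was counted in a list of 38 genes, nearly all of them subunits of complex I, that holds the symbols beginning with NDUF other than NDUFA4 and the assembly factors beginning with NDUFAF. Of these, 0 were higher at an unadjusted p under 0.05, against 6.63% of all genes tested, and 4 lower, or 10.5% against 4.31%. The lowest p of the list was that of NDUFA3, a small membrane subunit, at 11.1, 10.0 and 12.7 FPKM with the agomir and 14.2, 17.6 and 17.4 FPKM with the agomir NC. Its groups did not overlap, and its log2 fold change was -0.52 (standard error 0.10, limma's unadjusted p = 0.000551, Benjamini-Hochberg adjusted p = 0.185). NDUFB3, also of the membrane arm, had -0.33. With libraries set to an equal sum, 2 were higher and 4 lower, or 5.26% and 10.5% against 8.12% and 3.41% of all genes. The count lower was 6 without agomir NC replicate 2, or 15.8% against 4.29%. When agomir NC replicate 3 was left out, 3 were higher and 3 lower, or 7.89% each against 5.93% and 3.08%. The median of the 38 genes was -0.015 beside 0.013 over all genes tested, and 0.00069 beside 0.028 with libraries set to an equal sum. With 1 library left out it ran from -0.058, without agomir NC replicate 2, to 0.019, without agomir NC replicate 3. Their sums were 1473 ± 44.8 and 1499 ± 79.5 FPKM (mean ± SD, n = 3 each), so the list as a whole did not differ beyond the spread. Complex II, which has no subunit from mitochondrial DNA, had 4 genes with a median of 0.060, or 0.034 without agomir NC replicate 2. Of these, 1 was higher, or 25% against 6.63% of all genes tested, and the count was 2 with an equal sum or quantile normalization, where 8.12% and 5.60% of all genes were higher, and 0 under median-ratio scaling, where 5.29% were. The gene was SDHA, at an unadjusted p of 0.0499 in limma with a log2 fold change of 0.083. Its p was no longer under 0.05 in 12 of the 17 alternatives, among them each that left out 1 library, and was 0.125 without agomir replicate 1. Of 13 regulators of mitochondrial genes, 1 was higher, or 7.69% against 6.63% of all genes tested, and 0 lower. It was PPARGC1B, a coactivator of mitochondrial biogenesis, at 1.02 ± 0.0443 FPKM in the agomir group and 0.739 ± 0.0285 FPKM in the agomir NC group (mean ± SD, n = 3 each), which is on the log2 scale a difference of 0.29 with an adjusted p of 0.439 in limma with Benjamini-Hochberg adjustment. Its unadjusted p was at least 0.05 with the replicate block, with the span correction and when any 1 library was left out. The list had a median of 0.028, which was 0.098 without agomir replicate 1, 0.051 without agomir NC replicate 1 and 0.045 without agomir NC replicate 2. It was 0.013 under median-ratio scaling, 0.015 under quantile normalization, 0.043 with an equal sum and 0.054 with array weights. The count higher was 2 with an equal sum, or 15.4% against 8.12% of all genes. It was 0 when any agomir library or agomir NC replicate 3 was left out, where between 4.47% and 5.93% of all genes were higher. The subunits encoded in mitochondrial DNA were not analysed here.

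Many of these short, abundant genes have processed pseudogenes in mammalian genomes, and how fragments that match several places were shared out is not given in the sources used here. Of the 44 genes, 16 overlap another gene in the RefSeq table of the ARS-UCD2.0 assembly, UQCRC1 among them, whereas CYC1 and COX6B1 do not, and whether strand was used in the counting is not given either. The levels of single genes are uncertain to that extent.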

How the data were processed

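RNA of 3 agomir and 3 agomir NC samples, grouped by the treatment in the labels, was analysed. The deposited table holds FPKM values, 1 for each gene in each library. The submitters' processing notes name fastp, HISAT2, StringTie and the ARS-UCD1.2 assembly, without versions or roles of the tools. Ratios of 1899 low genes between libraries did not fall into steps (no bin of 0.002 on the log2 scale held more than 8), so read numbers were not recoverable and depth is unknown.

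Genes whose mean over the 6 libraries reached 0.5 FPKM were taken as log2(FPKM + 0.5), with 0.5 as pseudocount, and compared with limma (version 3.58.1, R 4.3.3), two-sided, letting the variance follow the level, and adjusted by Benjamini-Hochberg over all 12422 genes tested. The fit was tested on simulated data in which 200 genes were changed and the noise of each gene was drawn independently. At an adjusted p under 0.05 it recovered 64.5% of changes of 1.5-fold and 86.5% of changes of 2-fold. Of the genes called, 3.01% and 2.26% were false. Changes as small as those of the members were not simulated, nor were shifts of many genes together in 1 library. For single genes an exact permutation test over 20 labelings was added. Lists are given by counts and medians. Named were, in each complex, the genes with the highest and lowest level, the 3 highest and 3 lowest fold changes, those with an unadjusted p under 0.05 or under the filter, isoform sets and ATP5IF1, and in each related list up to 3 genes with an unadjusted p under 0.05. Any others were named once values had been seen. The members and lists were chosen with earlier results of these data known. All 44 members matched the RefSeq table of ARS-UCD2.0, 3 of them under another symbol, and it was used for names, overlaps and gene spans. The alternatives were a pseudocount of 0.1 or 1, a minimum mean of 1 FPKM or none, an equal sum per library, scaling by median ratios, quantile normalization, array weights, a fit without the variance trend, one with a replicate block, a correction for gene span, and the omission of each library.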

Additional observations from a re-analysis of the deposited data

How the results depend on the processing

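In none of the 17 alternatives was a gene of the 3 complexes under an adjusted p of 0.05 in limma with Benjamini-Hochberg adjustment, and the lowest adjusted p of any was 0.213, for UQCRC1 with the gene span correction. The number of genes past that threshold over the whole table, 1 as reported, was 0 with the replicate block, 0 when no trend of the variance was fitted and 0 when no filter was set, and between 0 and 2 with 1 library left out. At these counts of 0, limma's unadjusted p was under 0.05 for 1260, 1249 and 1604 genes. The number of members higher at an unadjusted p under 0.05, reported as 2, was 3 with an equal sum per library. UQCRFS1 was added there, for 7.69% of members against 8.12% of all genes. When no trend of the variance was fitted the number was 1, or 2.56% against 6.12% of all genes. The replicate block also left 1, or 2.56% against 5.94% of all genes. With 1 library left out the number was 1 to 3. It was 1, or 2.56%, when replicate 2 of either group was left out, against 4.47% of all genes without that of the agomir group and 5.28% without that of the agomir NC group. It was 3, or 7.69%, against 5.24% of all genes without agomir replicate 3 and 6.68% without the agomir NC library numbered 1. The number lower, reported as 1, was 3 with the replicate block (UQCR11, COX6B1 and COX7C), or 7.69% against 4.20% of all genes in that fit, and 0 to 5 with 1 library left out. Omitting agomir replicate 1 made it 2, or 5.13% against 4.0003% of all genes. It was 0 without agomir replicate 2 and 4, or 10.3%, without agomir replicate 3, each against 3.62% of all genes. Without agomir NC replicate 2 it was 5, or 12.8% against 4.29%, and without agomir NC replicate 3 it was 0, against 3.08%. Fewer samples enter these fits, and beyond that the cause was not tested. The deviations of same-numbered libraries had correlations of -0.051, 0.053 and 0.039 across genes, which show no pairing by number over these. Pairing is not excluded, since noise in single genes lowers such correlations. Over the 39 genes both libraries numbered 2 lay low, with median log2 deviations of -0.092 for the agomir and -0.061 for the agomir NC. Whether the numbers stand for a shared origin is not stated. The medians of the complexes moved by less than their SD between libraries. That SD comes from the same libraries, and omitting 1 of them can hardly move a median further, so this does not show that the medians are stable. With 1 library left out each of them took values on both sides of 0. The ratios of the summed FPKM of complexes III, IV and V, agomir over agomir NC, stayed between 0.959 and 1.04 under 2 scalings and with 1 library left out. Of all genes under an unadjusted p of 0.05, 60.6% were higher, against 48.2% under median-ratio scaling, 49.4% with the span correction and 70.5% with an equal sum.

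Of 493 values of 29 named members, 453 kept their sign, and the 40 that changed it, in 14 members, belong to log2 fold changes of at most 0.063 in size. With an equal sum per library, UQCRH was at 0.0064, COX6A1 at 0.0084, COX7A1 at 0.013 and ATP5MC2 at 0.0033. With array weights, UQCRH was at 0.0076, COX6A1 at 0.0020, COX7A1 at 0.013 and ATP5MC3 at -0.0023. Median-ratio scaling gave -0.012 for COX4I1 and -0.0071 for ATP5MC3, quantile normalization 0.012 for COX6A1 and 0.0086 for ATP5MC2, and the span correction 0.015 for COX6A1 and 0.022 for COX7A1. With 1 library left out, the ranges were -0.074 to 0.034 for UQCRH, -0.043 to 0.16 for UQCRQ, -0.074 to 0.079 for COX4I1, -0.032 to 0.10 for COX5A, -0.022 to 0.064 for COX5B, -0.064 to 0.033 for COX6A1, -0.098 to 0.17 for COX7A1, -0.12 to 0.016 for COX7A2L, -0.079 to 0.0066 for COX8A, -0.067 to 0.033 for ATP5IF1, -0.0034 to 0.045 for ATP5MC1, -0.076 to 0.036 for ATP5MC2, -0.039 to 0.046 for ATP5MC3 and -0.039 to 0.094 for ATP5PO. Of 237 values of 14 genes named from other lists, 6 changed sign, all of NDUFA4, at 0.0086 with an equal sum, 0.00053 with array weights and between -0.088 and 0.048 with 1 library left out. DCN was at 0 with quantile normalization. Unknown depth limits what can be said of COX6B2 and COX8B. A planned description of promoter motifs was not run.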
